A study of Mus musculus with 4 samples.

Results

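The 43 genes described here set or mark position along the head to tail axis of the mouse embryo: 38 Hox genes, the 3 Cdx genes (Cdx1, Cdx2 and Cdx4) and Meis1 and Meis2. They were taken by symbol from the 27998 genes of the count tables. They were read in single cells of the Mesp1 lineage, sorted as GFP-positive and DAPI-negative from Mesp1Cre;Rosa26-GFPflox/+ Swiss Webster embryos at 4 stages, E8.0 and E8.25 (early) and E9.5 and E10.5 (late). The Cre is active from the early Mesp1-expressing mesoderm and leaves GFP on in all descendants, so the sort takes heart, head and vascular mesoderm rather than 1 tissue. The labels give the upper part of the body as the tissue of the early libraries, and pharyngeal apparatus and heart for the late ones. Each stage was 1 library made from pooled embryos. Stages of unlike region are therefore set side by side only, since stage and dissected region cannot be told apart.

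Hox genes encode homeodomain transcription factors that lie in 4 clusters, HoxA to HoxD. Genes at the same rank in different clusters form a numbered paralogue group, and low-numbered groups are switched on earlier and reach further towards the head than high-numbered groups. Cdx proteins are caudal homeodomain factors that act upstream of many Hox genes in the tail end of the embryo, and Meis proteins bind DNA together with Hox and Pbx proteins. In the heart fields, the posterior second heart field (pSHF), which feeds the inflow tract and atria, is known for low-numbered Hox genes under retinoic acid, whereas the anterior second heart field (aSHF) feeds the outflow tract and right ventricle.

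On the mouse assembly GRCm38.p6, the HoxA members spanned chr6:52162417-52260880 (10 genes), HoxB chr11:96194316-96368254 (10), HoxC chr15:102921131-103036856 (9) and HoxD chr2:74668225-74765142 (9). RefSeq promoters, each 300 bases from 250 before to 50 after the start, were held for 26 of the 43 members. The Cdx-type motif TTTATG, searched on both strands, was present in 5 of these 26 (19.2%; Hoxa7, Hoxb8, Hoxd3, Hoxd4 and Hoxd11) and in 3893 of 32851 promoters of all genes (11.9%). The Hox-Pbx-type motif TGATNNAT was present in 4 of 26 (15.4%; Hoxa2, Hoxb1, Hoxb8 and Hoxd11) against 2906 of 32851 (8.85%), and it does not overlap the Cdx-type letters in the windows shown. The sequences below are shown because Hoxa7 and Hoxb8 are genes of the middle of the clusters that carry the Cdx-type letters. Hoxb1 and Hoxa2, genes of groups 1 and 2 among those called in the heart field comparison, carry the Hox-Pbx-type letters, and their sequences are shown too. Each is 30 bases, 5′ to 3′ on the gene's strand, and capitals mark the motif. They are letter matches in the reference, and no binding was measured. The member shares above count genes with the motif in any promoter held, whereas the shares beside them count single promoters. A gene with several promoters, as Hoxd11 has, has more chances of a match, so the shares are not like for like. The Hoxa7 windows are chr6:52218792-52218821 and chr6:52218729-52218758 (minus strand), the Hoxb8 windows chr11:96281736-96281765 and chr11:96281750-96281779 (plus strand, the second motif on the opposite strand), the Hoxb1 window chr11:96365585-96365614 (plus strand) and the Hoxa2 window chr6:52164924-52164953 (minus strand, the motif on the opposite strand).
Hoxa7, first base 236 before the start: tgtgaagtcgggTTTATGatgtgcaatcga
Hoxa7, first base 173 before the start: tggcctgagcagTTTATGaggcgtttaggg
Hoxb8, first base 157 before the start: atgctaacagctTTTATGcgctgcagcata
Hoxb8, first base 143 before the start: tatgcgctgcagCATAAAcaacaacagact
Hoxb1, first base 162 before the start: tgattggggggTGATGGATgggcgctggga
Hoxa2, first base 111 before the start: gacttttttggATCAATCAaacagacagtg

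After removal of low-quality cells and called doublets, 7118, 2884, 3921 and 7525 cells were retained, in order of stage, with 70599266 to 151615964 UMIs (unique molecular identifiers, each standing for 1 captured transcript) per library. Levels are given as CPM, the UMIs of a gene scaled to 1000000 UMIs of the library or of the cell group, and a run of 4 values follows the order of stages from E8.0 to E10.5. A count of 0 in a whole library allows up to 0.0198 to 0.0425 CPM, depending on its depth. Intervals are exact Poisson intervals at 95% and cover counting error only. Pairs of libraries shared 16 to 88 cell barcodes. Cells were assigned to compartments by marker lists that hold no Hox, Cdx or Meis gene. The E8.0 library, although labelled as upper body, held 1413 cells (19.9%) that met the allantois list and 49 that met the caudal, presomitic list. Tbx4, a marker on the allantois list, was at 117.8 CPM in those 1413 cells and 2.94 in the other E8.0 cells. The 23 cells that met the list at E8.25 held no Tbx4 UMI. E8.0 results are therefore given with and without the allantois and caudal cells. Erythroid cells, which as red cell precursors were used to read free RNA, had 10.9 CPM for groups 6 to 8 and 7.39 for groups 9 to 13 at E8.0, so levels near these are not separated from free RNA there.

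Hox genes of groups 6 to 13 were far lower in the E8.25 library than in the E8.0 library, while groups 1 to 5 differed little between these stages. Of the 43 members, 40 had at least 20 UMIs in both libraries together. Among them 25 were at least 2-fold lower at E8.25, beside 7.25% of all 15655 genes measured, and 0 were at least 2-fold higher, beside 4.55% of all genes. The 25 were every measured member of groups 6 to 13, all 3 Cdx genes and Hoxd1. With 1 library per stage there was no replicate check and no test. The median log2 ratio was -2.57 over the members and -0.04 over all genes.

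**Figure D1:**
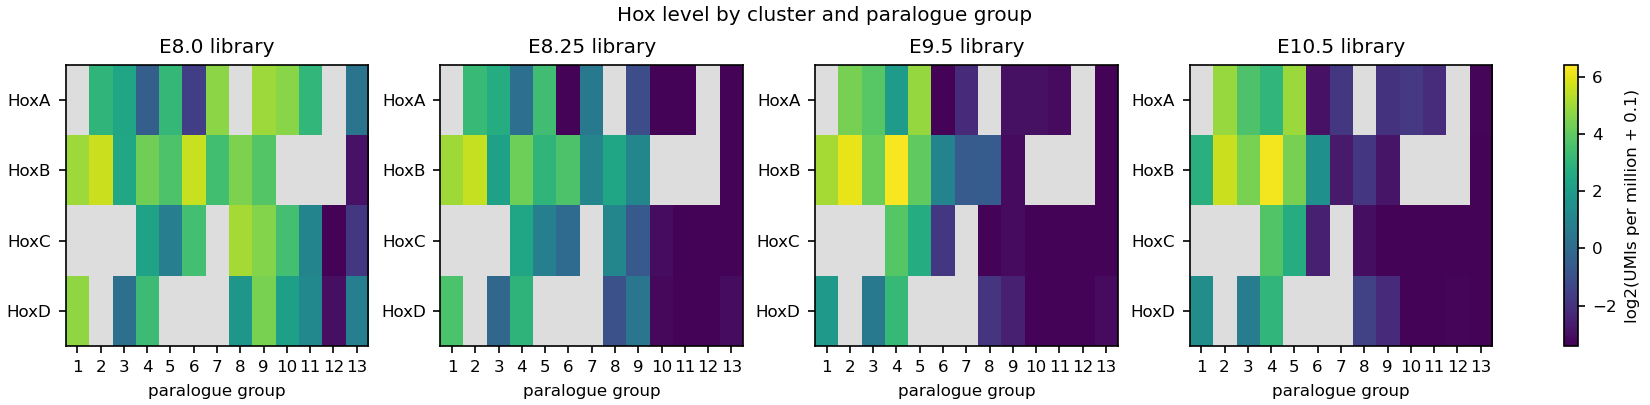
Level of each Hox member (colour, log2 of UMIs scaled to CPM, plus 0.1) by cluster and paralogue group in the 4 libraries, with grey where there is no member. The right-hand side of each panel, groups 6 to 13, is filled at E8.0 and nearly empty at E9.5 and E10.5, while groups 1 to 5 are filled in all 4 libraries.

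Hoxb1, a group 1 gene of the hindbrain and posterior heart field, was at 30.9, 31.9, 33.8 and 6.95 CPM. Hoxb2, its neighbour in group 2, was at 49.0, 46.2, 66.9 and 48.7. The ratio of E8.25 to E8.0 was 0.05 on the log2 scale for Hoxb1 (interval -0.02 to 0.11) and -0.09 for Hoxb2, so neither stood more than slightly apart between the early stages. Hoxa2, which patterns the second pharyngeal arch, was at 7.89, 9.48, 21.0 and 29.7, and Hoxa3, which acts in the third arch and its derivatives, at 5.02, 6.17, 14.4 and 12.7. Hoxb3 was at 5.46, 4.57, 18.3 and 21.2. For these 3 genes each late value lay above each early value. Hoxd1 went the other way: it was at 27.3, 12.3, 3.51 and 2.64, and its ratio of E8.25 to E8.0 was -1.15 on the log2 scale (interval -1.24 to -1.06).

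Members of groups 4 and 5 were likewise higher in the late libraries. Hoxb4 was at 19.5, 19.0, 78.7 and 74.0 CPM. Hoxa5, a gene required for lung and trachea development, was at 8.69, 10.3, 29.1 and 30.6. Hoxa4 was at 0.646, 1.03, 3.99 and 8.26. Both late values of these 3 genes exceeded both early ones. Hoxc4 was at 4.67, 5.09, 14.1 and 13.1, and Hoxc5 at 1.61, 1.68, 6.20 and 6.17. Hoxb5 was at 12.7, 7.88, 15.8 and 21.0 and Hoxd4 at 10.0, 7.73, 8.99 and 8.20, so Hoxd4 alone of these 7 was highest at E8.0. Spans of Hoxa3, Hoxa4, Hoxa5 and Hoxa6, of Hoxb3 and Hoxb4, of Hoxd3 and Hoxd4, and of Hoxd10 and Hoxd11 overlap in the annotation, so reads in the shared parts could be split or dropped by the counting and the values of these 10 genes are uncertain to that extent.

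In groups 6 to 8, genes of the trunk, values were highest at E8.0 and much lower at the late stages. Hoxb6 was at 47.2, 12.7, 1.95 and 2.80 CPM, and Hoxb8 at 22.1, 5.21, 0.581 and 0.180. Hoxa7 was at 25.8, 1.38, 0.113 and 0.188. The early ratio, E8.25 over E8.0, was -1.89 for Hoxb6 (interval -1.98 to -1.81) and -4.23 for Hoxa7 (-4.47 to -3.99) on the log2 scale, so the gene of cluster A was much the more uneven. Hoxc8 was at 33.5, 2.02, 0 and 0.0234, Hoxc6 at 11, 0.915, 0.184 and 0.0703 and Hoxb7 at 10.7, 1.99, 0.567 and 0.0547.

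Groups 9 to 13, which pattern the lumbar to tail region, the limbs and the genitalia, were almost entirely a feature of the E8.0 library. Hoxa9 was at 30.9, 0.377, 0.0283 and 0.156 CPM and Hoxa10 at 24.9, 0, 0.0283 and 0.195. With 3777 Hoxa10 UMIs at E8.0 and 0 at E8.25, the difference was at least 880.4-fold lower at a floor of 3 counts in the E8.25 library. Hoxb9 was at 13.5, 2.02, 0.0142 and 0.0391, Hoxc9 at 23.8, 0.528, 0.0142 and 0, and Hoxd9 at 21.4, 1.25, 0.0708 and 0.117. The 4 group 9 genes differed among themselves: the early log2 ratio was -2.74 for Hoxb9, -4.09 for Hoxd9, -5.49 for Hoxc9 and -6.36 for Hoxa9, and no interval overlapped the next. Hoxc10 was at 11, 0.0189, 0 and 0. Hoxc12 had 0 UMIs in all 4 libraries, and Hoxb13 and Hoxd12 had 5 UMIs each over all 4.

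**Figure D2:**
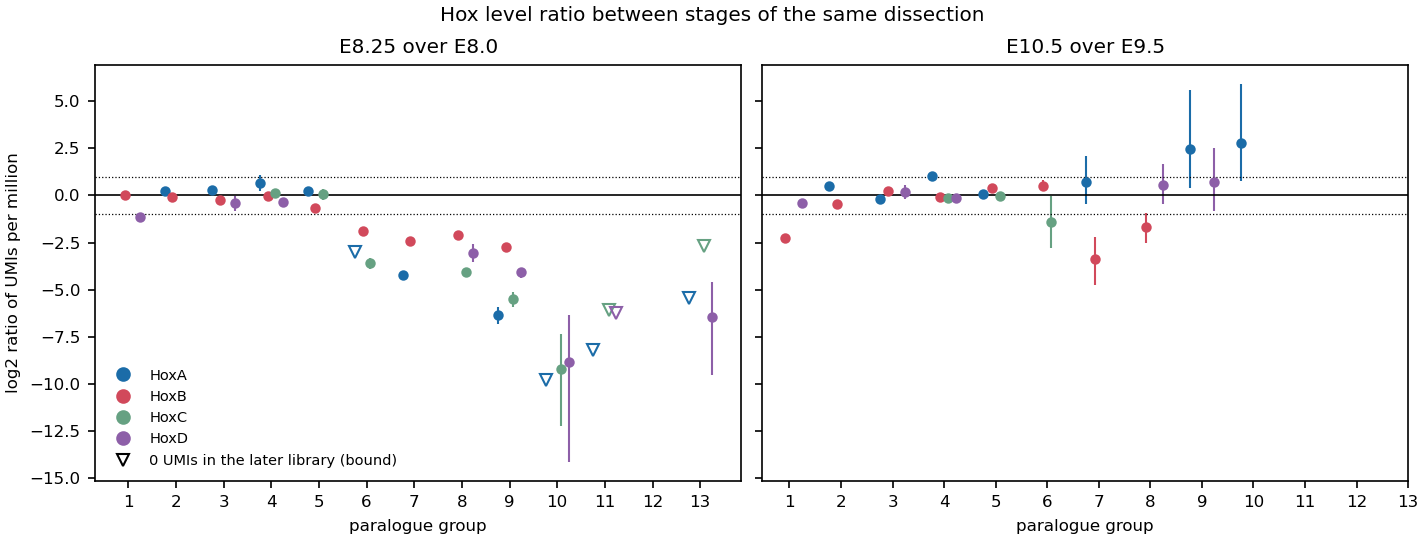
Log2 ratio of CPM for each measured Hox member by paralogue group, E8.25 over E8.0 and E10.5 over E9.5, with bars for the exact 95% counting interval, open triangles for a bound where the later library held 0 UMIs, and dotted lines at 2-fold. In the early pair every measured gene of groups 6 to 13 lies below the lower dotted line, and Hoxd1 is the gene of groups 1 to 5 that does.

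By paralogue group, the summed level over the 4 stages was 126.5, 111.4, 159.3 and 123.4 CPM for groups 1 to 3 and 57.8, 52.7, 156.8 and 161.2 for groups 4 to 5. It was 153.8, 24.6, 3.57 and 3.59 for groups 6 to 8 and 145.5, 4.23, 0.184 and 0.649 for groups 9 to 13. The allantois and caudal cells held 63.8% of the E8.0 UMIs of groups 6 to 8 and 75.1% of those of groups 9 to 13, but 18.9% of those of groups 1 to 3. Without these cells the E8.0 level was 71.7 for groups 6 to 8 and 46.7 for groups 9 to 13, still above the E8.25 values, and 23 of 38 members measured were at least 2-fold lower at E8.25, beside 6.59% of 15421 genes in that setting. The median over members was then -1.57 on the log2 scale. By cluster, the 4 values were 113.7, 28.7, 68.7 and 81.9 for HoxA, 211.0, 131.5, 216.5 and 174.9 for HoxB, 87.7, 10.3, 20.5 and 19.3 for HoxC, and 71.3, 22.5, 14.1 and 12.7 for HoxD.

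The Cdx and Meis families took opposite courses. Cdx1 was at 26.4, 9.52, 1.56 and 0.938 CPM, Cdx2 at 62.3, 3.83, 0 and 0, and Cdx4 at 46.3, 2.52, 0 and 0. The early log2 ratio was -1.47 for Cdx1, -4.02 for Cdx2 and -4.20 for Cdx4, and at the late stages Cdx1 was the family member still counted. The allantois and caudal cells held 50.3% of the Cdx UMIs at E8.0, and without them the family's summed level there was 86.6 rather than 135.1. Meis1 was at 44.5, 46.2, 89.6 and 89.6 and Meis2 at 142.5, 109.6, 249.6 and 287.8, so both were higher in each late library than in each early one. For the Meis genes the E8.0 sum was 187.0 with and 219.1 without the allantois and caudal cells.

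Between E9.5 and E10.5, both of pharyngeal apparatus and heart, most members measured stayed within 2-fold. Of 26 members measured, 3 were at least 2-fold higher at E10.5 (Hoxa4, Hoxa9 and Hoxa10), beside 9.19% of 15830 genes, and 4 were at least 2-fold lower (Hoxb1, Hoxb7, Hoxb8 and Hoxc6), beside 4.97%. Hoxb1 had the most UMIs of the 7, with a log2 ratio of -2.28 (interval -2.39 to -2.17). The ratio was 1.05 for Hoxa4 (0.86 to 1.24). For Hoxa9 and Hoxa10 it rested on 2 UMIs each at E9.5 and had wide intervals, 0.42 to 5.61 and 0.78 to 5.91. Meis1 at 0.00, Hoxb4 at -0.09, Meis2 at 0.21 and Hoxa2 at 0.49 were within the 2-fold line. The members' median was 0.04 and that of all genes -0.12, which became 0.04 with library sizes scaled by the trimmed mean of M-values (TMM), a shift of over 0.1 for every gene.

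The compartments differed in how far along the Hox series their cells read. In the allantois-list cells at E8.0 the summed level was 95 CPM for groups 1 to 3, 83.2 for groups 4 to 5, 441.7 for groups 6 to 8 and 497.0 for groups 9 to 13. Caudal cells had 462.2, 357.3, 292.1 and 167.3 for the same groups. The caudal cells thus had most in the low-numbered groups and the allantois-list cells most in the high-numbered groups. Hoxa10 was at 96.6 in the allantois-list cells, Hoxc8 at 107.9 and Hoxb6 at 128.0, and these cells held 84.4% of all Hoxa10 UMIs of the library. Cdx1 and Cdx2 parted there: in the allantois-list cells Cdx1 was at 11.9 and Cdx2 at 184.8, whereas in the caudal cells they were at 288.3 and 183.4. Cdx4 was at 93.3 and 214.5 in these 2 compartments. Meis1 was at 7.91 in the allantois-list cells against 44.5 in the whole library.

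**Figure D3:**
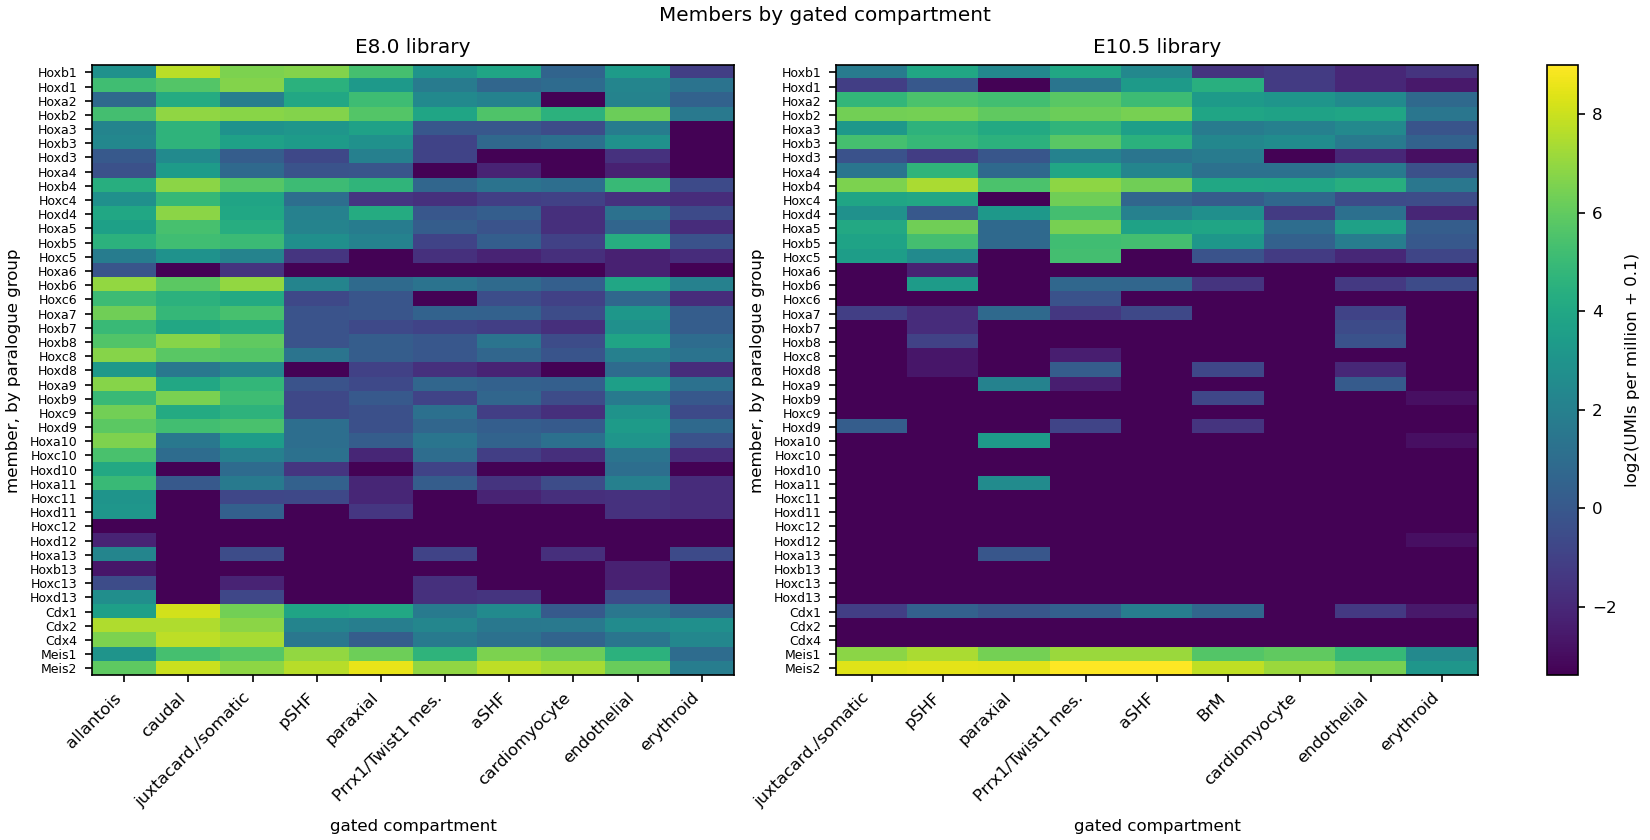
Level of the members (colour, log scale of CPM) in each marker-gated compartment at E8.0 and E10.5. At E8.0 the allantois, caudal and juxtacardiac or somatic compartments carry the middle and high-numbered genes, and at E10.5 genes of groups 1 to 5 are carried by several compartments, with sums for groups 4 to 5 of 337.4 in the pSHF, 413.0 in the Prrx1/Twist1 mesenchyme, 159.6 in juxtacardiac or somatic cells and 143.5 in the aSHF.

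The juxtacardiac or somatic cells, gated by Mab21l2, Hand1, Msx1, Msx2, Bmp4 and Lhx9, carried trunk Hox genes in the early libraries, where pSHF cells held few. Hand1 is on the allantois list as well, and Lhx9 had 0 UMIs in these cells at E8.0 and E8.25. Their summed level for groups 6 to 8 was 325.3, 169.0, 22.8 and 0.364 CPM, and for groups 9 to 13 it was 153.6, 12.8, 0.435 and 1.09. Among the cells of this gate the level of groups 9 to 13 was therefore also lower at E8.25, while groups 1 to 3 were at 332.2 and 300.1 at E8.0 and E8.25. Whether allantois-like cells that missed the allantois list had a part in the E8.0 level was not tested. Hoxb6 was at 128.2, 108.3, 13.3 and 0 in these cells, while pSHF cells had 4.54, 2.81 and 2.08 at the first 3 stages and 176 UMIs among 16774223 at E10.5 (interval 9 to 12.2 CPM). The log2 difference between them was 4.82 at E8.0 (interval 4.15 to 5.58), 5.27 at E8.25 (4.22 to 6.59) and 2.67 at E9.5 (2.05 to 3.31). At E10.5 the order was turned around, with 0 UMIs in the juxtacardiac or somatic cells. This pair was chosen after its values were seen, and no test was made.

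At the late stages, mesenchyme gated mainly by Prrx1 and Twist1 had the highest summed level of groups 4 to 5 among the compartments. The list was fixed for cranial mesenchyme, but the cells are called here by their leading genes. Their summed level for groups 4 to 5 was 350.2 CPM at E9.5 and 413.0 at E10.5. Hoxc4 was at 0.217, 3.98, 47.9 and 78.2 in them at the 4 stages, Hoxc5 at 0.217, 1.33, 18.7 and 38.9 and Hoxd4 at 0.868, 1.99, 45.3 and 39.8. In each of these genes the late values were at least several times the early ones. Against pSHF cells Hoxd4 was higher by 3.73 on the log2 scale in the E9.5 library (interval 3.28 to 4.20) and by 5.48 in the E10.5 library (4.74 to 6.33). Hoxc4 was higher by 1.47 (1.17 to 1.77) and 2.25 (2.05 to 2.45). Meis2, which marks much head and limb mesenchyme, was at 122.4, 155.8, 512.9 and 604.0 in the Prrx1/Twist1 cells. These differences were described after their values were seen and carry counting intervals only.

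Read cell by cell, the same order appeared. Each cell was thinned to 10000 UMIs, which left out 938, 25, 431 and 1449 shallower cells, and classed by the highest-numbered Hox group with a UMI. At E8.0, 31.9% of cells had no Hox UMI, 17.5% reached groups 1 to 3, 10.0% groups 4 to 5, 9.42% groups 6 to 8 and 31.1% groups 9 to 13. At E10.5 the shares were 34.3%, 17.2%, 45.6%, 2.50% and 0.428%. Few cells of the E10.5 library thus held a UMI of a group above 5. Of the allantois-list cells at E8.0, 93.4% reached groups 9 to 13, and these cells held UMIs of 7.31 Hox genes on average. Among juxtacardiac or somatic cells 38.0% reached groups 9 to 13 at E8.0 and 7.46% at E8.25. pSHF cells reached groups 4 to 5 in 24.2%, 49.2%, 81.2% and 80.2% at the 4 stages, and aSHF cells in 2.65%, 5.23%, 34.4% and 53.7%. Branchiomeric muscle progenitors (BrM), the head muscle precursors, had no Hox UMI in 88.1% (E9.5) and 64.4% (E10.5) of cells. Erythroid cells, the measure of free RNA, had none in 83.2%, 82.8% and 88.5% at E8.0, E8.25 and E10.5. The BrM share at E9.5 lies within this range of the other libraries, since E9.5 held 4 erythroid cells. Erythroid cells were deeper, with a median of 34876 UMIs at E8.0 and 27857 at E10.5, against 21321 and 15205 over all cells. Their values may therefore understate free RNA in shallower cells.

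**Figure D4:**
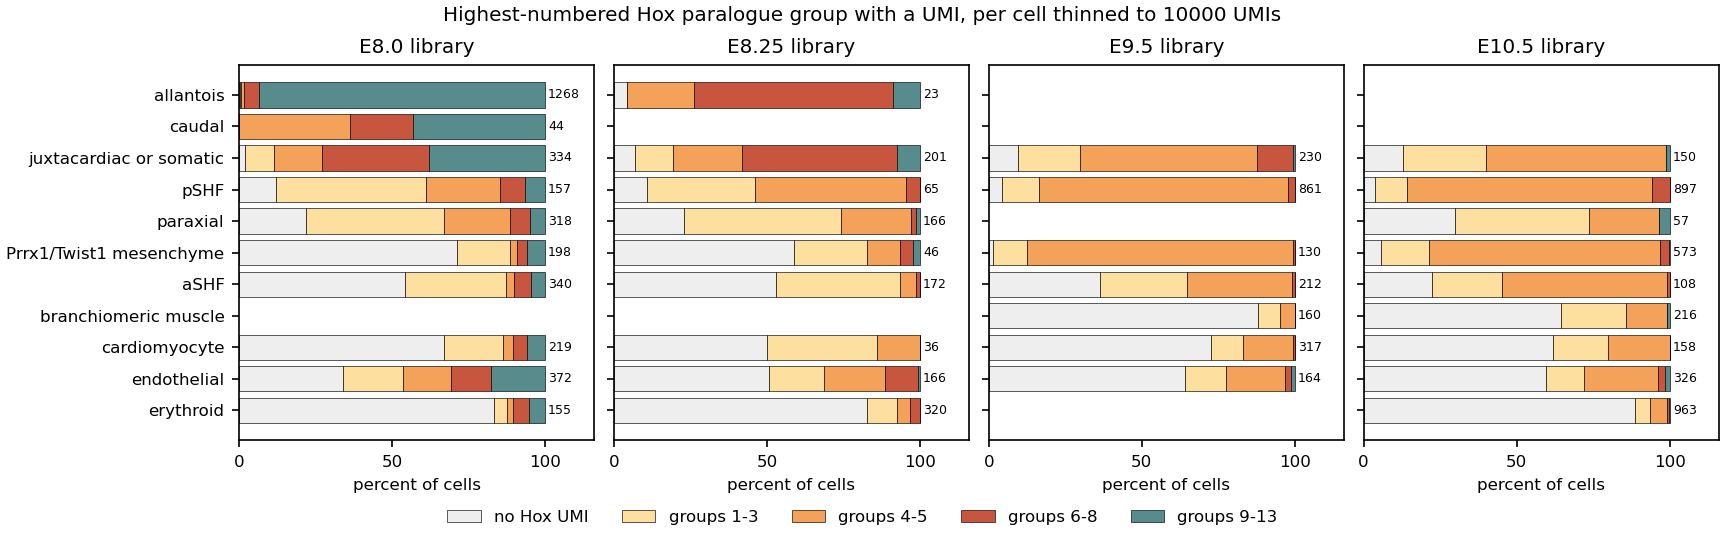
Percent of cells by the highest-numbered Hox group with a UMI, in each compartment and library, after thinning to 10000 UMIs, with the number of cells at the right of each bar. The share that reaches groups 4 to 5 in the pSHF is 24.2% at E8.0 and 80.2% at E10.5, and the allantois bar at E8.0 is 93.4% groups 9 to 13.

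The pSHF and aSHF are neighbouring heart progenitor fields, and the gates left Hoxb1 out so that it could be compared. In the pSHF gate Tbx5 was at 57.0 and 137.4 CPM at E8.0 and E10.5, against 4.75 and 10.3 in the other cells. In the aSHF gate Isl1 was at 178.8 and 397.0 against 30.4 and 51.7. The pSHF gate also used Foxf1, Wnt2, Osr1, Gata4 and Nr2f2, and took 24% and 15% of cells at E9.5 and E10.5. In the paper, posterior cells with Tbx5, Foxf1 and Wnt2 include lung progenitors as well as cardiac ones. How far lung progenitors carried the late pSHF levels was not tested. Of the 43 members, 16 passed the filter on low counts. Among them 9 were higher in the pSHF by edgeR's quasi-likelihood test with the library as a block, beside 1.59% of 10722 genes, and 0 were lower, beside 2.8%. The 9 were Hoxa2, Hoxa3, Hoxa4, Hoxa5, Hoxb1, Hoxb4, Hoxb6, Hoxc4 and Meis1, and each was higher in 4 of 4 libraries.

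Among the group 1 to 3 genes, Hoxb1 was at 102.3, 93.6, 57.5 and 15.5 CPM in the pSHF and 14.7, 28.5, 22.7 and 5.09 in the aSHF. The difference was 1.87 on the log2 scale (SE 0.24, edgeR adjusted p = 0.00782). The level in both fields was lowest at E10.5, and the pSHF stood above the aSHF at every stage. Hoxa2 was at 16.4, 24.1, 36.9 and 45.5 against 4.23, 9.17, 16.1 and 34.6, a difference of 1.12 (SE 0.23, edgeR adjusted p = 0.0407). Hoxa3 was at 8.57, 14.9, 26.5 and 24.8 against 0.872, 3.91, 9.89 and 12.2 (1.65, SE 0.30, edgeR adjusted p = 0.0258). Hoxb2 did not pass, at 102.3, 106.4, 91.0 and 85.3 against 47.3, 46.4, 70.9 and 86.5 (0.61, edgeR adjusted p = 0.14). Hoxb2 was more than double in the pSHF at the early stages and level at E10.5. Hoxd1 changed sides, at 22.7, 20.9, 1.56 and 0.894 in the pSHF and 1.49, 1.02, 8.90 and 10.2 in the aSHF, so that 1 difference over all libraries described it poorly (0.57, SE 1.43, edgeR adjusted p = 0.897).

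In groups 4 to 6, which follow next along the clusters, 5 members were called. Hoxc4 was at 2.02, 7.63, 17.2 and 16.5 CPM in the pSHF and 0.374, 0.510, 0.494 and 1.53 in the aSHF (3.77 on the log2 scale, SE 0.37, edgeR adjusted p = 0.00252). Hoxa5 was at 4.29, 22.5, 61.3 and 78.9 against 0.747, 2.38, 10.4 and 13.2 (2.65, SE 0.15, edgeR adjusted p = 0.00019). Neither gene's pSHF value was matched by the aSHF value of the same library. Hoxa4 was at 0.756, 4.02, 9.07 and 25.8 against 0.125, 0.510, 0.494 and 4.58 (2.92, SE 0.32, edgeR adjusted p = 0.00401). Hoxb4 was at 33.8, 63.9, 144.6 and 170.9 against 2.37, 3.06, 37.3 and 80.4 (2.29, SE 0.45, edgeR adjusted p = 0.0361). Its gap was much narrower at the late stages. As a share of cells thinned to 10000 UMIs, Hoxb4 was seen in 24.2%, 46.2%, 73.1% and 72.8% of pSHF cells and 1.18%, 2.33%, 25% and 38% of aSHF cells, beside 0.645%, 1.25% and 3.32% of erythroid cells at E8.0, E8.25 and E10.5. Without thinning the shares were 35.9%, 81.5%, 85.3% and 80.6% in the pSHF and 4.51%, 9.25%, 28.2% and 51.1% in the aSHF. The early aSHF shares are near the erythroid ones. Hoxb6, whose pSHF values are given above, was at 1.74, 0.849, 0.247 and 1.53 in the aSHF (1.94, SE 0.35, edgeR adjusted p = 0.0268), and its E8.0 values lie below the erythroid sum of groups 6 to 8. It passed the filter on low counts through the pSHF, where it was high, and kept its call in 4 of 9 alternatives.

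Meis1 had the smallest called difference, at 127.3, 114.5, 124.9 and 169.7 CPM in the pSHF against 94.5, 63.0, 75.6 and 140.5 in the aSHF (0.52, SE 0.09, edgeR adjusted p = 0.0265). The 7 tested members without a call were Hoxb2, Hoxb3, Hoxb5, Hoxd1, Hoxd4, Cdx1 and Meis2. The count of 9 is sensitive to how the comparison is made: it was 4 without the E8.25 library, 3 without the E9.5 library, 2 with a stricter gate and 1 without the library block. Hoxc4, with 2 to 3 aSHF UMIs in each library, passed the filter through the pSHF and was not tested under the stricter gate or without the E9.5 library. Hoxb6 likewise passed the filter through the pSHF, and Hoxa4 mainly so. The calls of these genes are therefore not independent of their high pSHF level.

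**Figure D5:**
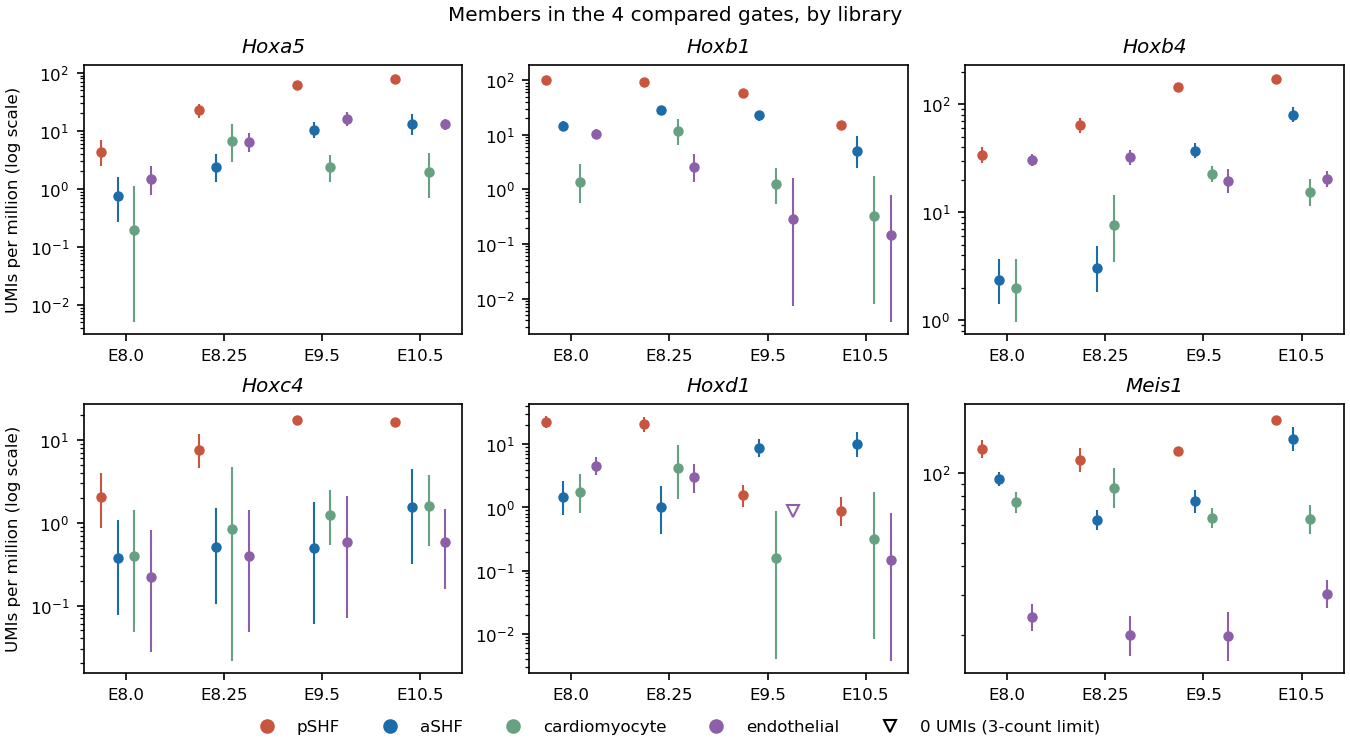
CPM (log axis) of Hoxa5, Hoxb1, Hoxb4, Hoxc4, Hoxd1 and Meis1 in pSHF, aSHF, cardiomyocyte and endothelial cells of each library, with exact 95% Poisson bars and open triangles at the 3-count limit where 0 UMIs were found. The pSHF lies above the aSHF in all 4 libraries for every gene shown but Hoxd1, which is at 22.7 and 1.49 at E8.0 and at 0.894 and 10.2 at E10.5.

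Against cardiomyocytes, the differentiated heart muscle, the members were higher in the pSHF almost throughout. Of 12 members tested, 11 were higher, beside 19.3% of 10682 genes, and 0 were lower, beside 19.2%. Each of the 11 was higher in 4 of 4 libraries. A high level in the pSHF was enough to pass the filter on low counts. Hoxb1 and Hoxa5 passed it through the pSHF, and Hoxa4 mainly so. The count of 11 is therefore not independent of the high pSHF level. Hoxb1 was at 1.39, 11.8, 1.25 and 0.32 CPM in cardiomyocytes, well under the pSHF values above (4.84 on the log2 scale, SE 0.45, edgeR adjusted p = 0.000375). Hoxa5 was at 0.199, 6.72, 2.35 and 1.92 (4.21, SE 0.47, edgeR adjusted p = 0.000778). Hoxb4 was at 1.99, 7.56, 22.6 and 15.4 (3.09, SE 0.22, edgeR adjusted p = 0.000121). The others of groups 1 to 5 ranged from 1.83 for Hoxb2 to 4.10 for Hoxa4. Hoxa4 was not tested under the stricter gate or without the E9.5 or the E10.5 library. The Meis genes were the smallest of the 11, with 0.81 for Meis1 (SE 0.15, edgeR adjusted p = 0.00735) and 0.65 for Meis2 (SE 0.19, edgeR adjusted p = 0.0342). Meis1 in cardiomyocytes was at 75, 86.5, 64.2 and 63.4. Hoxd4 missed the threshold (1.96, edgeR adjusted p = 0.0752). The E8.25 cardiomyocyte gate held 36 cells.

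Against endothelial cells, 13 of 16 members tested were higher in the pSHF, beside 19.2% of 11012 genes, and 0 were lower, beside 22.2%. Each of the 13 was higher in 4 of 4 libraries. Meis1 was at 24, 20, 19.9 and 30.3 CPM in endothelial cells, a steady gap to the pSHF (2.40 on the log2 scale, SE 0.08, edgeR adjusted p = 2.25e-05). Hoxb1 had 94 endothelial UMIs at E8.0 (interval 8.52 to 12.9 CPM) and was at 2.60, 0.293 and 0.145 CPM at the later stages (4.39, SE 0.49, edgeR adjusted p = 0.000986). Hoxc4 differed by 4.32 (SE 0.31, edgeR adjusted p = 0.000183) and Hoxa2 by 2.55 (SE 0.25, edgeR adjusted p = 0.00056). Here too Hoxb1 and Hoxc4 passed the filter on low counts through the pSHF, so their calls are not independent of their high pSHF level. Hoxc4 was not tested under the stricter gate or without the E10.5 library. Cdx1, the early-acting caudal factor, was also called (1.96, SE 0.37, edgeR adjusted p = 0.00734). Cdx1 was not tested under the stricter gate or without the E8.0 or the E8.25 library. It lost its call without the library block (edgeR adjusted p = 0.297). Among the HoxB genes, the early values were closer or in the opposite order. Hoxb4 was at 30.5, 32.2, 19.6 and 20.3 in endothelial cells. Hoxb5 was at 20.2, 16.2, 6.74 and 3.48 and Hoxb6 at 15.1, 6.59, 0 and 0.290. Hoxb5, at 6.81, 13.3, 23.4 and 38.9 in the pSHF, and Hoxb6 were lower in the pSHF than in endothelium at both early stages and higher at both late ones. Hoxb4 was called (1.69, SE 0.52, edgeR adjusted p = 0.0425), while Hoxb5 (0.75, edgeR adjusted p = 0.491), Hoxb6 (0.42, edgeR adjusted p = 0.793) and Hoxd4 (0.03, edgeR adjusted p = 0.962) were not. At E8.0 the endothelial gate also carried 52.8 for groups 6 to 8 and 51.1 for groups 9 to 13, several times the erythroid levels. Without the library block the count of higher members was 8.

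Paraxial cells, gated by somite markers, and BrM cells could be set side by side at E10.5 alone (72 and 252 cells), so there was no test. Of 11 members measured, 5 were at least 2-fold higher in paraxial cells (Hoxa2, Hoxa3, Hoxb2, Hoxb3 and Hoxb4), beside 4.23% of 9820 genes, and 3 were lower (Hoxa5, Hoxb5 and Hoxd1), beside 6.9%. Hoxa2 was at 38.3 CPM in paraxial and 10.0 in BrM cells (1.94 on the log2 scale, interval 1.29 to 2.58). Hoxa5 was at 1.66 and 14.8 (-3.15, interval -6.23 to -1.23). Hoxd1 had 0 UMIs in paraxial cells and 85 in BrM cells, at least 8.52-fold lower at a floor of 3 counts in the paraxial cells. The paraxial cells of this library, which was dissected as pharyngeal apparatus and heart, held 2 UMIs of groups 6 to 8 (1.66 CPM). They held 25 UMIs of groups 9 to 13 (20.8 CPM, interval 13.5 to 30.7), beside 3 in BrM cells (0.75 CPM). Of the 25, Hoxa10 gave 12, Hoxa11 7, Hoxa9 5 and Hoxa13 1, and none of these genes was among the 11 measured. The Hoxa10 and Hoxa11 UMIs lay in 3 paraxial cells. With a stricter gate the counts of members were 2 higher and 1 lower.

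The pathway around the members was read from a list of 25 cofactors and regulators (Pbx and Pknox partners, Meis3, retinoic acid enzymes and receptors, Gdf11, Wnt3a, T, Gbx2, Egr2, Nr6a1 and chromatin regulators among them). In the pSHF against aSHF comparison 22 were tested, 3 were higher (beside 1.59% of all genes) and 1 was lower (beside 2.8%), and the list's median log2 difference was 0.03 against -0.00 for all genes. Aldh1a2, which makes retinoic acid, was higher by 3.06 (SE 0.23, edgeR adjusted p = 0.000969). Pbx3 and Meis3, partners of Hox proteins, were higher by 1.08 (SE 0.17, edgeR adjusted p = 0.0173) and 0.75 (SE 0.14, edgeR adjusted p = 0.0343). Gbx2, a homeobox gene, was lower (-2.89, SE 0.43, edgeR adjusted p = 0.0135). Rarb, a retinoic acid receptor, was at 0.95 (SE 0.21, edgeR adjusted p = 0.0546), without a call. Against cardiomyocytes 10 of 21 were higher (beside 19.3% of all genes) and 0 lower (beside 19.2%), with a median of 0.51 against 0.02 for all genes. Against endothelial cells 14 of 22 were higher (beside 19.2%) and 3 lower (beside 22.2%), with a median of 0.75 against 0.02.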

How the data were processed

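The labels and methods describe GFP-positive, DAPI-negative cells of 4 libraries, made with the 10x Chromium 3′ kit v2 and, per the submitters' processing notes, Cell Ranger 3.1.0 on mm10. The authors deposited raw UMI counts per gene and cell, and no normalized values were used. Cells with under 1000 genes or over 10% mitochondrial UMIs (4, 2, 3 and 28, in order of stage) and called doublets (459, 70, 131 and 517) were removed. Scrublet's own threshold marked 0.0247% to 1.58% of cells, so the top-scoring 0.8% per 1000 cells were removed instead. The kit reads the 3′ end, and reads shared with overlapping genes cannot be split.

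Compartments were scored from 16 marker lists without members (score over 0.3, margin 0.05, at least 3 markers), with thresholds set after marker levels were seen. Library totals gave counts scaled to 1000000 (CPM). Stage ratios needed at least 20 UMIs and were called at 2-fold. UMI counts summed per library and compartment (at least 20 cells) were tested with edgeR 4.0.16 (R 4.3.3) in 3 comparisons, with library as block, Benjamini-Hochberg over all genes and a threshold of 0.05, after a test on simulated data. DESeq2 1.42.0, other size factors, no filter, no block, a stricter gate (0.4) and leaving out each library were alternatives. Python 3.11.15 and scanpy 1.11.5 were used.

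The members and lists were chosen with earlier results of these data known. Values in every library are given for at most 30 members: those with the most UMIs, and those called in a comparison, up to 10 per direction. Cofactors were limited to the 6 with the smallest p, of which 1 is not reported here. Genes named outside these rules were chosen after their values were seen.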

Additional observations from a re-analysis of the deposited data

Results flagged for a closer look

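In 9 cases a compartment difference was unlike at the late stages (E9.5 and E10.5) and the early stages (E8.0 and E8.25), by a late-minus-early term in edgeR's quasi-likelihood test over all genes. The term was added after the data were seen, and stage and dissected region cannot be told apart in it.

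For the pSHF over the aSHF, 3 of 16 members differed, beside 0.783% of 10722 genes: Hoxb2 by -0.95 on the log2 scale (SE 0.15, edgeR adjusted p = 0.0399), Hoxb4 by -2.57 (SE 0.36, edgeR adjusted p = 0.0284) and Hoxd1 by -6.97 (SE 0.50, edgeR adjusted p = 0.00342). The pSHF excess of Hoxb2 and Hoxb4 was smaller late, and that of Hoxd1 was turned around.

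For the pSHF over cardiomyocytes, 1 of 12 differed, beside 3.52% of 10682 genes: Meis2 by 0.91 (SE 0.15, edgeR adjusted p = 0.0223).

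For the pSHF over endothelial cells, 5 of 16 differed, beside 4.27% of 11012 genes, all of them HoxB genes: Hoxb2 by 1.60 (SE 0.24, edgeR adjusted p = 0.0166), Hoxb3 by 2.20 (SE 0.40, edgeR adjusted p = 0.0295), Hoxb4 by 2.44 (SE 0.26, edgeR adjusted p = 0.00509), Hoxb5 by 3.71 (SE 0.58, edgeR adjusted p = 0.018) and Hoxb6 by 6.79 (SE 0.61, edgeR adjusted p = 0.00311). For Hoxb2, Hoxb3 and Hoxb4 the pSHF excess was larger late. Hoxb5 and Hoxb6 were lower in the pSHF than in endothelial cells at both early stages and higher at both late ones.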

How the results depend on the processing

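Of the counts of members, 81 stayed within 1.5 times the value reported under their alternatives and 15 did not. Among single members, 272 kept their call, 43 lost it and 0 turned in sign. Between E9.5 and E10.5, the higher count of 3 became 5 with all deposited barcodes, without erythroid cells and with doublets kept. The number of members in at least 1% of cells at E8.25 was 21, and 12 when at least 2 UMIs were asked for. For the pSHF over the aSHF, the 9 higher became 1 without the library block and 2 with a stricter gate, which also gave 1 lower, and ranged from 3 to 10 leaving out each library in turn. For the pSHF over cardiomyocytes, 11 became 17 with no filter beyond a count above 0 and ranged from 11 to 13 with a library left out. For the pSHF over endothelial cells, 13 higher became 8 without the block and ranged from 9 to 12, and 0 lower became 3 with DESeq2 and 4 without the filter. Paraxial against BrM cells gave 2 higher and 1 lower with a stricter gate, which held 16 paraxial cells, rather than 5 and 3. The causes of these moves were not tested. In the 3 comparisons, 8 of 9, 1 of 11 and 7 of 13 called members lost their call under at least 1 alternative, and members left untested by the filter in some alternatives are not counted as losses there. The labels give no replicate numbers that link samples, so libraries were not paired with each other. The compartments compared came from the same libraries, and with the library as block those comparisons were paired by library. For paraxial against BrM cells, fits, size factors and leave-one-out were not run, with 1 library holding both. Depth limits low counts: a library without a UMI allows up to 0.0425 CPM at E9.5.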

Other observations

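A small group of E10.5 cells carried Hoxa10 or Hoxa11, genes otherwise nearly absent from the late libraries. There were 14 such cells, of which 10 met no gate, 3 were paraxial and 1 was erythroid. Of the 14, 12 (85.7%, exact binomial interval 57.2% to 98.2%) held a UMI of Lbx1, a gene of migrating limb and tongue muscle precursors, against 181 of 7511 other cells (2.41%, 2.07% to 2.78%). Pax3, also of muscle precursors, had a UMI in 11 of them (78.6%) against 158 of the others (2.10%). Tbx4 had a UMI in 0 of the 14. The 25 Hoxa10 UMIs came from 11 cells, of which 1 gave 11 UMIs. The 16 Hoxa11 UMIs came from 8 cells, and the 20 Hoxa9 UMIs of the library from 13. These cells, genes and markers were chosen after their values were seen, they come from 1 library, and no test was made. Whether doublets or free RNA have a part was not tested.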
